A study of Schizosaccharomyces pombe with 39 samples.

Results

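The comparison described here asked what changes in fission yeast when the silencing regulator Epe1 is depleted for a second time, after cells have been through a long depletion and a short recovery. The 3 libraries of the second depletion (120 h of depletion, 24 h of recovery, then 24 h of depletion) were set against the 3 libraries taken after the 24 h recovery that preceded it. These are 6 of the 39 RNA-seq libraries of the series, chosen by the stage named in their titles, and all 6485 genes with enough reads were tested. The 6 belong to a memory experiment of 15 libraries, whose other stages are untreated cells, cells after 120 h of depletion and cells after 48 h of recovery. A separate time course of 18 libraries follows a first depletion, and from it the 24 h and 0 h libraries (3 each) serve below for comparison. Another 6 libraries, of the genotype mst2Depe1D, give levels of epe1 and clr4 in cells without either regulator.

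All groups of the memory experiment and the time course are Schizosaccharomyces pombe of one genotype, with the allele nmt81-epe1-3xFLAG-AID, the deletion mst2D and, at ade6 (ade6::ade6+), the TIR1 fusions adh15prom-skp1-OsTIR1, followed by the marker natMX6, and adh15prom-skp1-AtTIR1-2NLS. They were grown at 32 °C in EMMC medium in log phase. Every one of these groups therefore lacks mst2, and in every one epe1 is transcribed from the nmt81 promoter and its protein carries a FLAG tag and an auxin-inducible degron. Depletion means thiamine, which represses that promoter, together with the auxin 1-naphthaleneacetic acid, which directs the tagged protein to degradation through the TIR1 proteins that the strain expresses. Recovery means growth without them. The mst2Depe1D libraries (2 biological replicates of 3 libraries each) are from untreated cells with both genes deleted, and their label names neither the degron nor the TIR1 fusions. The treatment field of the second depletion libraries holds only a '-' sign, while their titles name a second treatment. The titles were followed. None of the libraries used here is from a strain without the degron under the same treatment, so effects of thiamine or of the auxin and effects of losing Epe1 cannot be told apart. The labels number the replicates but do not say that they are separate cultures, so the p-values measure the spread between these libraries, which may be technical. Replicate numbers used below follow the order of the count columns within each group. The labels do not tie that order to their own numbering.

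Heterochromatin in fission yeast is marked by methylation of histone H3 on lysine 9, which Clr4, the only enzyme for this mark in the species, writes and which Swi6 and other chromodomain proteins bind. It covers the repeats around centromeres, the mating-type locus and the chromosome ends. Epe1, a JmjC-domain protein, and Mst2, a histone acetyltransferase, keep it from spreading beyond these places. In cells that lack both, heterochromatin has been reported to form over clr4 itself and lower its expression, which limits further spreading.

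The compared libraries held 14781022 to 19313299 counts each. Replicate 2 of the second depletion stood apart. It had the lowest total of the 15 memory libraries and a TMM scaling factor of 0.629, against 0.935 to 1.055 in the other 5 compared libraries, and its 20 most abundant genes took 11.5% of its counts, against 6.94% to 8.17%. Deviations of its genes from their mean over the experiment followed GC content (Spearman rho 0.675 across genes, a description), and replicate 3 of the second depletion showed the same to a lesser degree (rho 0.540). Replicate 1 had a rho of -0.004, and the 24 h recovery libraries had -0.369, 0.244 and -0.405, so the GC trend also differed between the groups. The correlation of replicate 2 with the other 2 libraries of its group was 0.967 and 0.982 (Pearson, log2 CPM), against 0.992 to 0.996 within the 24 h recovery. The part of this library in the results was not tested beyond leaving it out, and calls below are given with and without it. Of the genes in the tables, 69.1% overlap another gene in the annotation, and reads in an overlap were counted for both genes, so antisense partners cannot be told apart.

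The transcript of the depleted gene fell, as did the transcript of clr4, the H3K9 methyltransferase gene. The epe1 gene (SPCC622.16c, III:1431048-1435036, minus strand, ASM294v2) contains the non-coding gene prl67, and counts outside prl67 were obtained by subtraction. Outside prl67, epe1 had 18.8, 12.4 and 14.6 CPM (counts scaled per library) in the second depletion, against 158, 138 and 114 CPM in the 24 h recovery. The groups were far apart, and the mean was 8.96-fold lower in the second depletion. The mst2Depe1D libraries still showed 18.7 ± 1.46 and 18.3 ± 2.28 CPM in this part of the gene (SD, n = 3 each, scaled by plain totals), so the second depletion lies at the level that reads in the deleted cells give. In the first 24 h of depletion the same measure was 35.6 ± 4.84 CPM, against 83.4 ± 7.91 CPM at 0 h (SD, n = 3 each). Over the whole gene, prl67 included, epe1 changed by -1.04 (log2, SE 0.14, adjusted p = 1.90e-04) in the second step.

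The clr4 gene (SPBC428.08c, II:453996-458487, minus strand) had 16.3, 11.9 and 19.7 CPM in the second depletion, against 136, 110 and 92.4 CPM in the 24 h recovery. Every library of the second depletion was below every library of the recovery. The fitted change was -2.80 (log2, SE 0.17, adjusted p = 1.65e-07), 6.99-fold lower, and it was -2.65 without replicate 2 (adjusted p = 1.68e-07). The gene meu6 (SPBC428.07, II:454108-456553, plus strand), which encodes a pleckstrin homology protein, lies inside clr4 on the other strand and shared most of these counts. It changed by -2.96 (SE 0.18, adjusted p = 9.80e-08). Outside meu6, clr4 had 4.52, 2.26 and 4.21 CPM in the second depletion, against 19.4, 14.5 and 13.6 CPM in the recovery. These groups did not overlap either, and the mean was 4.33-fold lower in the second depletion (exact permutation test of log2 CPM, two-sided p = 0.10, the smallest that 3 against 3 libraries allow).

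Set in the order of the experiment, clr4 outside meu6 averaged 10.8 ± 0.145 CPM in untreated cells, 1.63 ± 0.508 CPM after 120 h of depletion, 15.8 ± 3.15 CPM after 24 h of recovery and 3.66 ± 1.23 CPM after the second depletion (SD, n = 3 each). The branch left to recover for 48 h had 9.63 ± 0.534 CPM. The mst2Depe1D libraries had 3.45 ± 0.837 and 4.04 ± 0.633 CPM. In the meu6 interval the 24 h recovery stood further above untreated cells than it did outside it, with 97.1 ± 19.0 CPM in the recovery and 22.2 ± 2.01 CPM in untreated cells. Which strand these reads came from is not known from the counts.

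**Figure D1:**
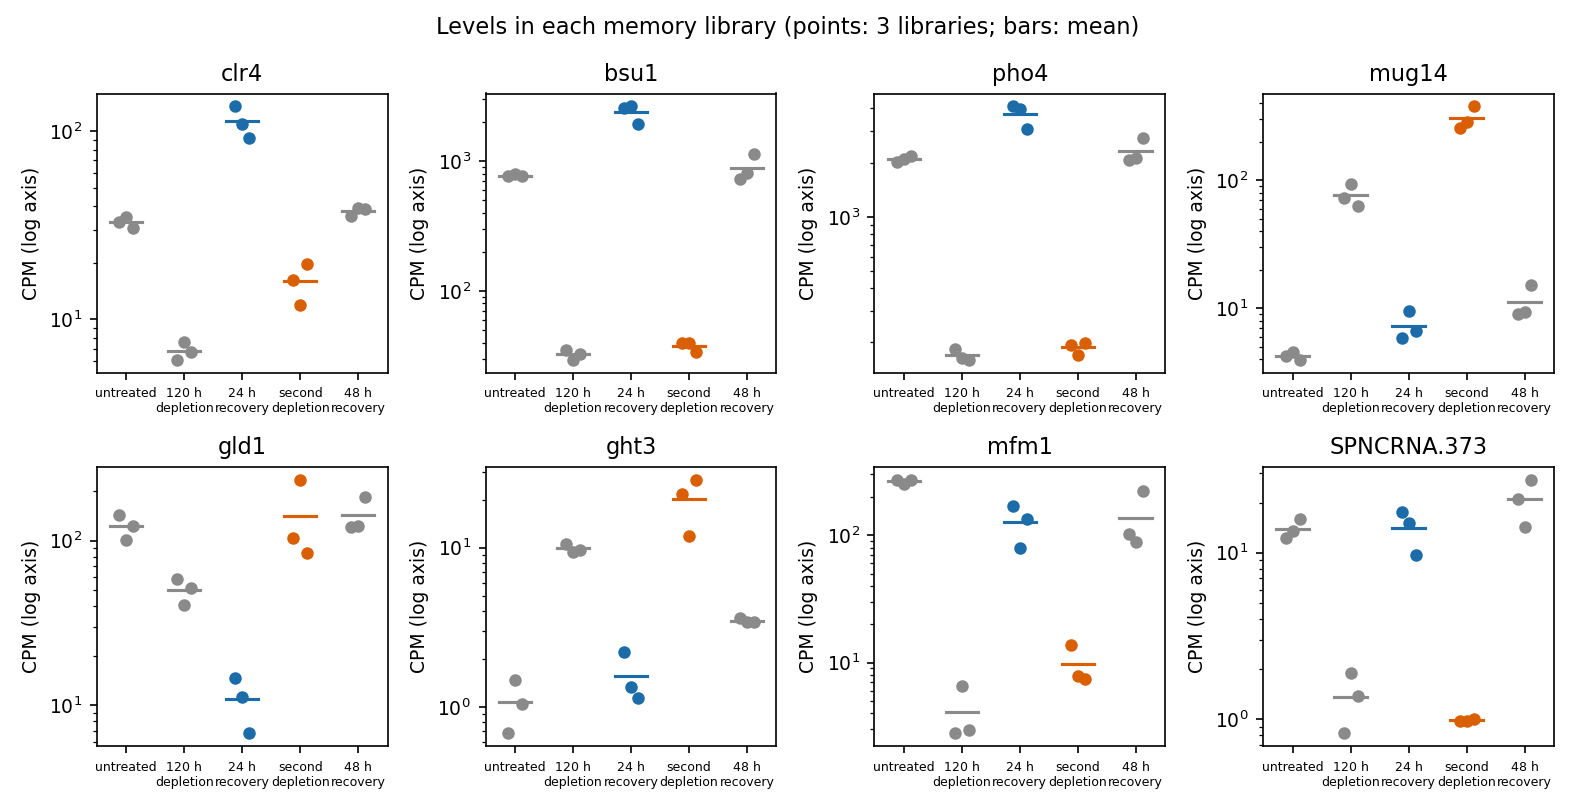
CPM (log axis) of 8 genes in each of the 15 memory libraries, by stage; points are libraries and bars group means. Second depletion (orange) and 24 h recovery (blue) do not overlap for any of the 8 genes, and clr4 lies at 11.9 to 19.7 CPM in the second depletion and 92.4 to 136 CPM in the recovery.

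In the first 24 h of depletion clr4 showed no change past the threshold. Whole-gene clr4 stood at 0.16 (log2, adjusted p = 0.380) at 24 h relative to 0 h, and outside meu6 it had 16.3 ± 1.22 CPM at 24 h, against 15.3 ± 2.23 CPM at 0 h (SD, n = 3 each). The difference between the steps, second minus first, was -2.94 (SE 0.22, adjusted p = 1.13e-09), and -2.80 without replicate 2 (adjusted p = 2.27e-09). The steps were sequenced in different experiments with their own starting cells, so step and experiment cannot be told apart here or in any other difference between steps.

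Neighbours of clr4 moved both ways. Of 18 tested genes within 15 kb on either side, clr4 and meu6 not counted, 9 passed the test at adjusted p under 0.05, 6 higher and 3 lower, where 27.8% of all tested genes passed in either direction. With and without replicate 2 of the second depletion 8 of the 18 passed, 5 higher and 3 lower, where 16.4% of all genes did. The neighbour on the left, rxt2, a histone deacetylase complex subunit, changed by -0.66 (adjusted p = 5.53e-04), while arg12, an enzyme of arginine synthesis next to it, changed by 1.17 (adjusted p = 0.0126). The gene pho4, which encodes the thiamine-repressible acid phosphatase, ends 6818 bases from clr4 and fell further than clr4.

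**Figure D2:**
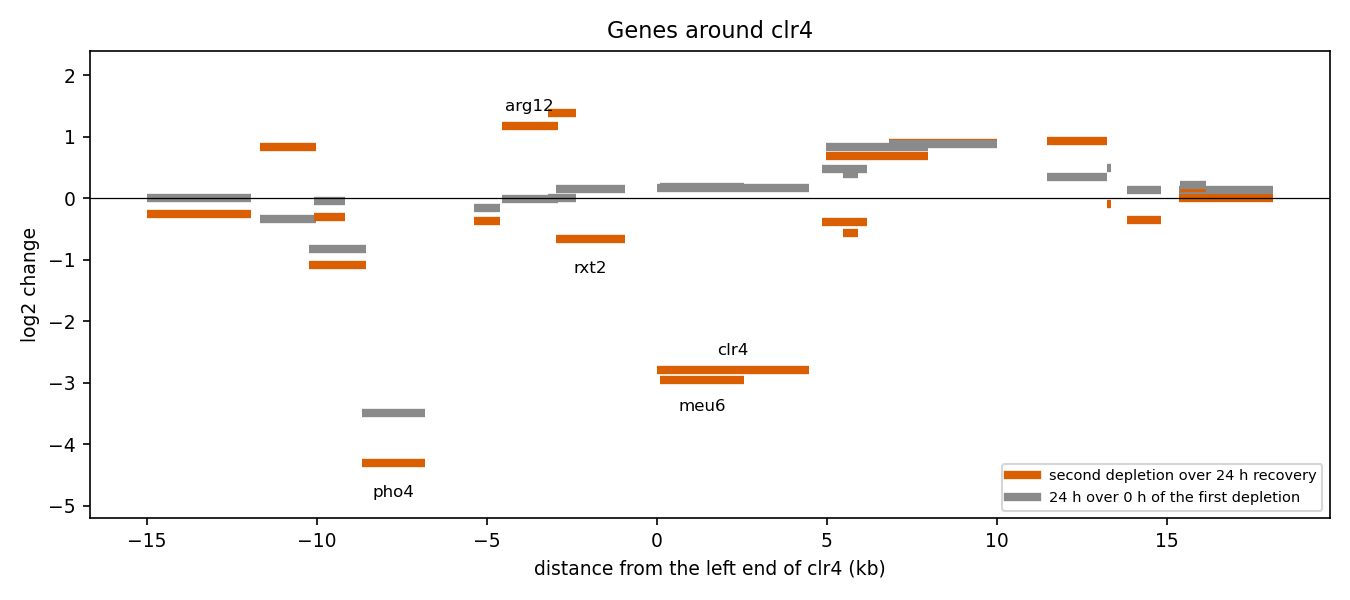
Log2 change of each gene around clr4, drawn to scale by distance from the left end of clr4 (kb), in the second depletion over the 24 h recovery (orange) and in 24 h over 0 h of the first depletion (grey). clr4 and meu6 fell in the second step (-2.80 and -2.96) and stood at 0.16 and 0.19 in the first, while pho4 fell in both (-4.31 and -3.49).

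Across all genes, 1055 of 6485 were higher in the second depletion than in the 24 h recovery and 747 were lower (edgeR quasi-likelihood test, Benjamini-Hochberg adjusted p under 0.05), which is 16.3% and 11.5% of those tested. At least 2-fold differences that passed the test were seen in 229 genes that were higher (3.53%) and 148 that were lower (2.28%). Without replicate 2 of the second depletion, 716 genes were higher and 477 lower (18.3% called in either direction). The number called, 1802 in all, also depended on other libraries and on the scaling: 3409 genes passed without replicate 1 of the second depletion, 873 without replicate 1 of the recovery, 801 without its replicate 3, and 652 with plain library totals. In all, 1064 genes (16.4%) passed in the same direction with and without replicate 2 of the second depletion, 647 higher (9.98%) and 417 lower (6.43%). Of these, 135 rose (2.08%) and 83 fell (1.28%) at least 2-fold in both fits. In 38.9% of tested genes the CPM of the 2 groups did not overlap. The median change of all tested genes was -0.01 (log2). Fitted on the 6 compared libraries alone, 336 genes passed (5.27%), of which 332 are among the 1064. Named genes below passed with and without replicate 2 unless that is stated otherwise. Many of them did not pass in the fit of the 6 compared libraries alone. These include mfm2, mam4, scr1, hxk2, hsp16, sti1, mei4, pho1, SPBPB21E7.08, SPNCRNA.359, SPAC212.08c, stc1, clr2, clr3, arb1 and bdf2 (adjusted p 0.0553 to 0.165 in that fit).

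Genes that fission yeast represses when thiamine is present fell. All 5 genes of the list chosen for this response were lower, where 11.5% of all tested genes were, with a median change of -4.16 (log2). The carrier gene bsu1 (SPAC17A2.01, I:3549682-3552067), whose product imports vitamin B6, had 39.6, 39.4 and 33.9 CPM in the second depletion, against 2568, 2639 and 1934 CPM in the 24 h recovery. No library of either group came near the other, and the change was -5.98 (SE 0.21, adjusted p = 1.09e-09). The phosphatase gene pho4 (SPBC428.03c, II:445324-447177) had 193, 171 and 199 CPM, against 4120, 3973 and 3057 CPM (-4.31, SE 0.20, adjusted p = 6.34e-09). SPBC530.07c, annotated as a TENA/THI family protein, had 62.5, 79.5 and 66.5 CPM in the second depletion, against 1371, 1343 and 1019 CPM in the recovery. The high-affinity thiamine transporter gene thi9 changed by -4.10 (SE 0.16) and thi4, whose product catalyses late steps of thiamine synthesis, by -1.34 (SE 0.11). The thi4 change was the smallest of the 5, and its groups still did not overlap, with 459 to 514 CPM in the second depletion and 1191 to 1286 CPM in the recovery.

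Other genes annotated to thiamine uptake or synthesis lay outside the list and were named after their values were seen. SPBP8B7.18c, annotated as the phosphomethylpyrimidine kinase Thi201, changed by -3.82 (SE 0.20), as did the antisense gene that covers it, and SPCC794.03, annotated as a thiamine transporter, by -3.45 (SE 0.08). SPCC162.03 and SPCC162.02c, which lie next to each other, changed by -3.39 and -3.04. They are annotated as dehydrogenases, without mention of thiamine, and were also named after their values were seen. Recovery had carried several of these genes above the untreated level. bsu1 averaged 769 CPM in untreated cells, 32.5 CPM after 120 h of depletion, 2381 CPM after 24 h of recovery, 37.6 CPM after the second depletion and 886 CPM after 48 h of recovery. For thi9 the same stages gave 709, 42.8, 1136, 66.4 and 781 CPM, and for thi4 1153, 492, 1236, 490 and 1259 CPM. The level reached in the second depletion was thus close to that after 120 h for bsu1, pho4 (188 and 169 CPM) and thi4. The starting level differed for bsu1 and for pho4 (3717 CPM after 24 h of recovery and 2093 CPM in untreated cells), and little for thi4.

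Non-coding transcripts from the centromeres fell, some of them to 0 counts. The annotation names 13 non-coding RNAs in the tables centromeric or centromere-proximal, 12 had enough reads, and all 12 were lower in the second depletion, 11 of them also without replicate 2. This group was drawn up after its values were seen, and background for lower genes is 11.5%. SPNCRNA.366 (II:1617399-1617921) had 0 counts in each of the 3 libraries of the second depletion, against 13.2, 8.21 and 7.63 CPM in the 24 h recovery. Taking 3 counts per library as the most that a count of 0 allows, it was at least 50.4-fold lower. SPNCRNA.360 (II:1606372-1609066) had 4 counts in the 3 libraries of the second depletion together and 412 in those of the recovery, a level 86.7-fold higher in the recovery (95% exact interval 33.6 to 320, counting error only). SPNCRNA.373 (II:1640114-1641543) kept a measurable level of 0.976, 0.968 and 0.997 CPM in the second depletion, against 17.6, 15.1 and 9.68 CPM in the recovery (-3.84, SE 0.35, adjusted p = 6.96e-06).

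On chromosome I, SPNCRNA.234 had 1.70, 1.51 and 1.27 CPM in the second depletion, against 12.8, 10.3 and 7.01 CPM in the recovery (-2.75, SE 0.27), and SPNCRNA.231 changed by -3.01 (SE 0.36). SPNCRNA.230 (nam5) was the exception without replicate 2, with -1.25 in all libraries (adjusted p = 0.0194) and -1.08 without that library (adjusted p = 0.0579). SPNCRNA.359, on chromosome II (-2.49, SE 0.69), rested on unequal libraries, with 8.79, 0.753 and 0.554 CPM in the second depletion, against 23.4, 15.8 and 21.8 CPM in the recovery. On chromosome III, SPNCRNA.1172 had 6 counts in the second depletion and 97 in the recovery, 13.6-fold higher in the recovery (interval 6.03 to 38.0). The centromeric repeats are near-identical copies of each other, so how reads were divided among these genes is uncertain.

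**Figure D3:**
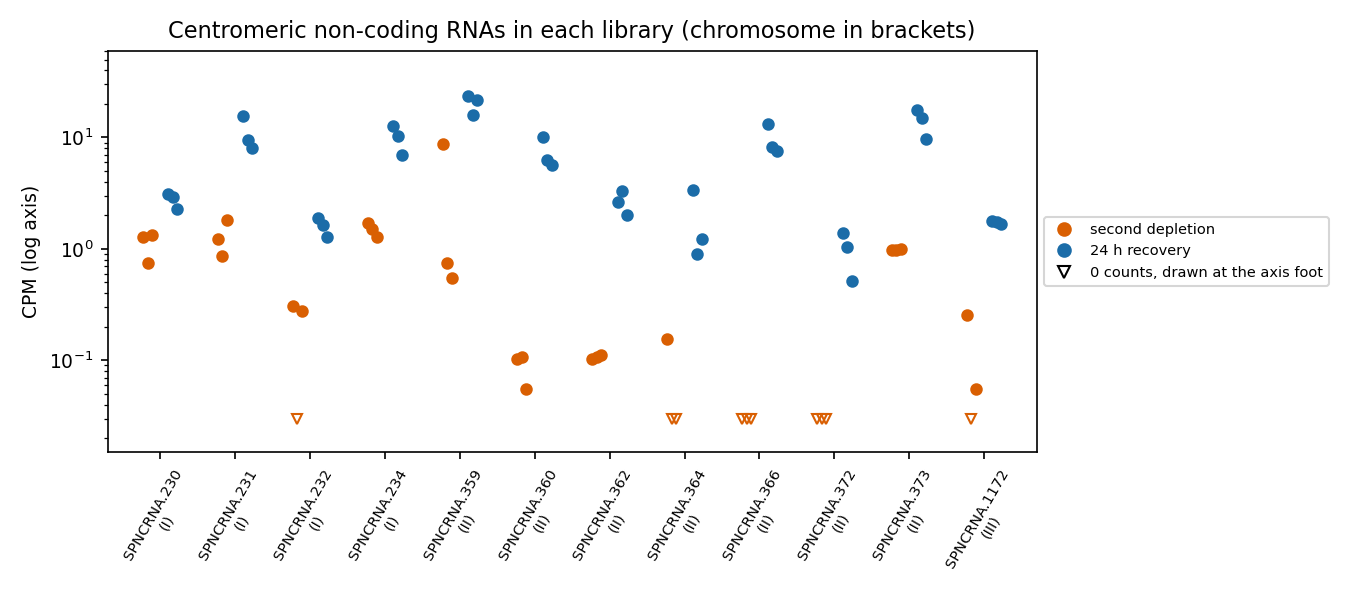
CPM (log axis) of the 12 tested centromeric non-coding RNAs in the 3 second depletion libraries (orange) and the 3 libraries of the 24 h recovery (blue); triangles mark libraries with 0 counts. The recovery libraries lie above the second depletion libraries for every one of the 12.

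The 12 RNAs also fell in the first 24 h of depletion, where 17.2% of all tested genes were lower. The median fitted change was -3.78 in the second step and -5.74 in the first, and with RNAs at 0 counts set to the smallest fall that a limit of 3 counts per library allows (2 RNAs in the second step, 3 in the first) it was -3.37 and -5.13. For 5 RNAs the difference between steps passed the test with and without replicate 2, in each case with the smaller fall in the second step. At 24 h of the first depletion these 5 held 0 to 8 counts in the 3 libraries together, so their first-step falls are given by counts and their ratios. SPNCRNA.230 had 0 counts at 24 h and was at least 12.8-fold lower there than at 0 h (adjusted p of the difference between steps 2.33e-05). SPNCRNA.231 had 1 count at 24 h and 261 at 0 h, 280-fold higher at 0 h (95% exact interval 49.8 to 11088; adjusted p of the difference 0.00145). SPNCRNA.359 had 4 and 1127 counts, 302-fold higher at 0 h (interval 118 to 1110), although its second-step libraries were unequal. SPNCRNA.234 had 8 counts at 24 h and 372 at 0 h, and SPNCRNA.373 had 6 and 363, 64.8-fold higher at 0 h (interval 29.5 to 178). SPNCRNA.373 averaged 0.0858 CPM at 24 h of the first depletion, 1.36 CPM after 120 h and 0.980 CPM after the second depletion.

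Near the chromosome ends, where heterochromatin also forms, genes moved both ways. Of 111 tested genes within 100 kb of an end of chromosome I or II, 34 were higher in the second depletion and 15 lower (30.6% and 13.5%, against 16.3% and 11.5% of all tested genes), with a median change of 0.29, against -0.01 for all genes. The numbers were 32 and 14 without replicate 2 (median 0.41), where 18.3% of all genes passed in either direction. SPAC212.12 (I:15855-16226), annotated as a GPI-anchored protein, had 0.206, 0.753 and 0.166 CPM in the second depletion, against 15.7, 11.3 and 13.7 CPM in the recovery (-5.42, SE 0.36, adjusted p = 3.61e-07). SPBPB21E7.08 (II:72081-73390) changed by -2.28 (adjusted p = 0.00439), with recovery libraries that ranged widely, at 35.4 to 150 CPM. Among the rises, SPBPB2B2.01, an amino-acid permease gene, changed by 3.92 and gal10, an epimerase of galactose use, by 1.93, and the enolase gene eno102 by 1.27. The permease gene stayed low, at 3.21 to 6.88 CPM in the second depletion and 0.102 to 0.543 CPM in the recovery.

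The largest rise was that of mug14 (SPBC359.06, II:128660-129742), an adducin gene involved in organising the actin cytoskeleton. It had 257, 289 and 381 CPM in the second depletion, against 5.83, 9.47 and 6.65 CPM in the 24 h recovery, a change of 5.41 (SE 0.26, adjusted p = 1.18e-08). All 3 libraries of the second depletion were high, replicate 2 in their midst. The gene averaged 4.25 CPM in untreated cells and 76.8 CPM after 120 h of depletion, so the second depletion lay above the first long one. In the time course mug14 averaged 2.77 CPM at 0 h and 383 CPM after the first 24 h of depletion. The difference between steps, second minus first, was -1.67 (SE 0.70) and did not pass the joint test (adjusted p = 0.0763). Among genes that averaged at least 5 CPM in either group, the next by size was shu1, a cell-surface haem-uptake protein gene, with 6.12, 4.41 and 12.6 CPM in the second depletion, against 0.614, 0.724 and 0.358 CPM in the recovery (3.78, SE 0.43). The transporter gene mfc1 rose by 2.89 (SE 0.19) and its antisense gene by 3.11 (SE 0.20), on counts that they largely share. The spore-coat gene region isp3 rose on its antisense gene, by 3.13 (SE 0.27).

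Genes tied to glucose repression rose together. Their list holds genes that glucose normally represses, the ght transporter genes and the regulator genes scr1 and rst2. Of the 13 genes of this list, all tested, 11 were higher and none lower, with and without replicate 2, against a background of 16.3% higher. Their median change was 1.41 (1.19 without replicate 2). The glycerol dehydrogenase gene gld1 (SPAC13F5.03c, I:2174641-2177050) had 104, 234 and 83.7 CPM in the second depletion, against 14.6, 11.3 and 6.76 CPM in the recovery (3.68, SE 0.39, adjusted p = 2.83e-05). Replicate 2 was the highest library, and without it the change was 3.10. The gluconate symporter gene ght3 (I:82746-84786) had 21.8, 11.8 and 26.7 CPM, against 2.20, 1.33 and 1.13 CPM (3.70, SE 0.34), and there replicate 2 was the lowest of its group. The high-affinity glucose symporter genes ght1 and ght5 rose by 2.88 (SE 0.28) and 1.41 (SE 0.19). ght5 is much more abundant as a transcript, with 2151, 2408 and 1977 CPM in the second depletion, against 793, 1052 and 621 CPM in the recovery. scr1, which encodes a glucose-sensing repressor and is 1 of the 11, rose by 1.83 (SE 0.35, 1.19 without replicate 2). The fructose-1,6-bisphosphatase gene fbp1 rose by 0.94 (SE 0.13). The members that did not pass were ght2 (0.13) and ght8 (0.16), both hexose transporter genes.

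The recovery was the low point for gld1, ght5, ght1 and scr1. gld1 averaged 123 CPM in untreated cells, 50.2 CPM after 120 h of depletion, 10.9 CPM after 24 h of recovery, 141 CPM after the second depletion and 142 CPM after 48 h of recovery, so its level in the second depletion was near that of untreated cells. ght5 averaged 1488, 1255, 822, 2179 and 1773 CPM over the same stages. For ght1 the means were 22.4, 26.2, 11.5, 84.5 and 27.8 CPM, and for scr1 71.9, 57.6, 46.9, 168 and 106 CPM. ght3 differed, with 1.06, 9.89, 1.55, 20.1 and 3.48 CPM.

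Other rises were in genes of several kinds. zwf2, a glucose-6-phosphate dehydrogenase gene named after its values were seen, had 154, 302 and 163 CPM in the second depletion, against 35.9, 35.0 and 33.2 CPM in the recovery (2.57, SE 0.24). gpd3, a glyceraldehyde 3-phosphate dehydrogenase gene, changed by 2.62 (SE 0.47) with all libraries and by 1.74 without replicate 2, whose 1022 CPM compare with 267 and 312 CPM in the other 2 libraries of its group. SPAC23H3.15c, annotated as Ddr48, showed the same dependence (2.61 and 1.90; 752 CPM in replicate 2, 269 and 244 CPM in the others), and so did the antisense gene over it (2.63 and 1.91). SPBC19C7.04c, an uncharacterized protein gene, rose by 2.59 (SE 0.26). Untreated cells stood above the recovery for zwf2 (means of 78.9 and 34.7 CPM) and gpd3 (116 and 86.6 CPM). The same held for SPAC23H3.15c (340 and 68.9 CPM) and SPBC19C7.04c (20.2 and 6.61 CPM). Of 14 glycolysis genes in the list, only 5 were matched by name and tested, so most of the pathway is not covered. Of these 5, 4 were higher with all libraries and 2 without replicate 2. Of all genes, 16.3% were higher with all libraries and 18.3% were called either way without replicate 2. The hexokinase gene hxk2 was 1 of those 2, with 1.26 and 0.67.

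Some genes of M cells fell, the M-factor precursor genes mfm1 and mfm2 among them. The precursor gene mfm3 was also tested and passed in neither fit. Of 9 tested M-cell genes, 4 were lower and 1 higher (all genes: 11.5% lower and 16.3% higher), and 3 lower and none higher without replicate 2 (all genes: 18.3% either way). The member called higher, the cell agglutination gene mam3, stood at 1.14 with all libraries and at 0.68 without replicate 2 (adjusted p = 0.149). mfm1 (SPAPB8E5.05, I:4916603-4917521), which encodes a precursor of the M-factor pheromone, had 13.7, 7.85 and 7.47 CPM in the second depletion, against 170, 79.9 and 134 CPM in the recovery (-3.70, SE 0.43, adjusted p = 5.70e-05). The groups were well apart, although the recovery libraries spread about their mean. A second precursor gene, mfm2, changed by -2.07 (SE 0.42), with replicate 2 lowest at 14.1 CPM and the other libraries of its group at 77.6 and 32.9 CPM. mam4, which encodes the enzyme that methylates the pheromone, changed by -1.21 (SE 0.30). Of 5 P-cell genes, 1 was higher and 2 lower, and none passed without replicate 2. The meiotic gene mug111 had 10.6, 3.23 and 9.08 CPM in the second depletion, against 120, 90.4 and 106 CPM in the recovery (-3.71, SE 0.29).

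Markers of the cell states such a culture could hold were summed to see whether the mixture moved with these results. The 7 M-cell markers summed to 276 to 374 CPM in the second depletion and 488 to 680 CPM in the recovery, 2 of them lower with and without replicate 2, and the 4 P-cell markers to 853 to 1406 CPM and 838 to 849 CPM. The 5 meiotic markers summed to 27.6 to 32.9 CPM and 34.3 to 37.6 CPM, with mei4 and mcp5 lower in both fits (-0.47 and -1.06). The meiotic marker rec8 was called higher with all libraries (0.65, edgeR adjusted p = 0.0448) and not without replicate 2 (adjusted p = 0.0946). Of all genes, 6.43% were lower and 9.98% higher in both fits. No marker was at 0 in all 6 libraries. In bulk RNA, fewer cells of a type and less RNA per cell cannot be told apart, and the part of such a shift in the results was not tested.

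Of 24 tested genes of the heterochromatin machinery other than epe1 and clr4, 5 were higher and 3 lower (all genes: 16.3% and 11.5%), with a median of -0.10. With and without replicate 2, 4 were higher and 1 lower (all genes: 9.98% and 6.43%). The argonaute-linker gene stc1 rose by 0.73 (SE 0.17; 0.47 and not called with plain library totals), and the deacetylase gene clr3, the argonaute-partner gene arb1 and the boundary gene bdf2 had changes of 0.29 to 0.35, which passed with this scaling and not with plain library totals (0.08 to 0.15). clr2, which encodes a subunit of the Clr3 complex, fell by 0.41 on the log2 scale (SE 0.08). swi6, the gene of the protein that binds the methyl mark, was called with all libraries (-0.59, adjusted p = 0.0287) and was at -0.40 without replicate 2 (adjusted p = 0.0748).

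The next lists are to be read against 16.3% of all genes higher and 11.5% lower, and 18.3% called either way without replicate 2. Among stress genes, 10 of 18 were higher (55.6%) and 2 lower (11.1%), with a median of 0.46, and 7 and 2 passed without replicate 2. The metallothionein gene zym1 rose by 1.89 (SE 0.27) and the catalase gene ctt1 by 1.68 (SE 0.24), and ctt1 had 360, 693 and 383 CPM in the second depletion, against 148, 133 and 166 CPM in the recovery. pyp2, a phosphatase gene of the stress MAP kinase pathway, rose by 1.22 (SE 0.12). Untreated cells averaged 394 CPM for ctt1, against 149 CPM in the recovery and 479 CPM in the second depletion. For pyp2 these means were 197, 61.5 and 144 CPM, so its second depletion level lay below that of untreated cells. For zym1 they were 6.50, 8.69 and 32.3 CPM. Of 10 chaperone genes, hsp16 rose by 1.01 and the Hsp90 co-chaperone gene sti1 changed by -0.63, and both passed without replicate 2. Of 12 nitrogen-response genes 5 were higher and none lower (3 and none without replicate 2), led by the amino acid permease gene isp5 at 1.78 (SE 0.22). Of 12 flocculation genes 4 were higher and none lower (2 and none without replicate 2), led by the adhesin genes pfl7 at 2.39 (SE 0.31) and pfl5 at 1.28 (SE 0.23). Of 15 genes of the Ste11 mating pathway 4 were higher and 3 lower (3 and 1 without replicate 2).

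Nutrient uptake genes were mixed, beside the same shares of all genes (16.3% higher and 11.5% lower). The ferric reductase gene frp1 changed by -1.88 (SE 0.42), with 95.9, 26.9 and 57.9 CPM in the second depletion, against 278, 200 and 197 CPM in the recovery, and it was the only iron-uptake gene of 8 called lower with all libraries, shu1 being the only one higher. Of 11 genes for iron-using proteins, 5 were higher and 3 lower (2 and 3 without replicate 2), and sdh2 and sdh1, subunits of succinate dehydrogenase, stood at 0.90 and 0.76, sdh1 not passing without replicate 2. Of 4 phosphate genes, pho1 and pho84, the acid phosphatase and the phosphate transporter, fell (-0.88 and -0.78), and tgp1, a glycerophosphodiester transporter, rose (1.31). The counts over the rest of the lists were 5 higher and 1 lower of 20 respiration genes, 6 and none of 11 histone genes, 4 and 2 of 10 sterol genes and 1 and 2 of 10 meiotic transcripts subject to Mmi1-dependent elimination. Without replicate 2 these became 2 and 2, 4 and none, none and 2, and none and 2. Among 1395 tested non-coding genes, 216 were higher (15.5%) and 156 lower (11.2%), close to the shares of all genes.

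Ribosomal protein genes show how far 1 library can carry a median. The 110 tested genes whose symbols begin with rpl, rps or rpp, a prefix that also takes in antisense genes and subunits of RNase P, had a median of 0.61 with all libraries and 0.05 without replicate 2. Only 2 were called higher and 4 lower with all libraries (none and 4 without replicate 2), 1.82% and 3.64% of the list, against 16.3% and 11.5% of all genes. In the first depletion step the same genes had a median of -0.46, with 90 of 109 lower, where 17.2% of all genes were.

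**Figure D4:**
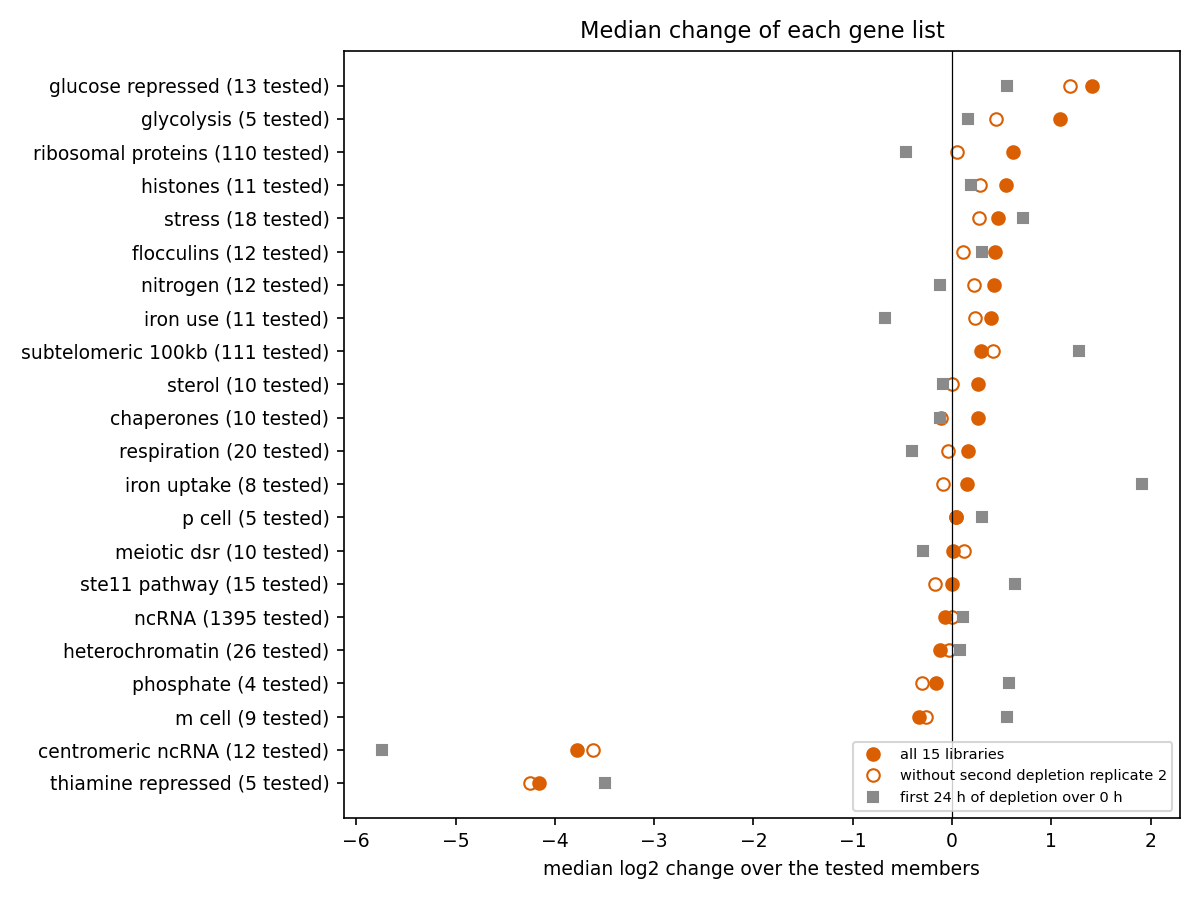
Median log2 change of the tested members of each list in the second depletion over the 24 h recovery, with all 15 libraries (filled) and without second depletion replicate 2 (open), and in 24 h over 0 h of the first depletion (grey squares). Thiamine genes (-4.16) and centromeric RNAs (-3.78) lie far below all other lists. The list of glucose-repressed genes, ght genes and regulators is highest (1.41), and the ribosomal protein genes move to 0.05 when replicate 2 is left out.

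The second step and the first 24 h of depletion share no library, which allows the changes to be set beside each other. Of 6473 genes tested in both, 813 passed in both, and 676 of these (83.1%) changed in the same direction. Of the 218 genes that changed at least 2-fold in the second step in both fits and were tested in the first, 126 also changed at least 2-fold and the same way in the first step. These are 57.8% of the second-step genes and 35.8% of the 352 first-step genes that were tested in both. Across all genes the log2 changes had a Pearson correlation of 0.439 and a Spearman correlation of 0.197, given as a description. In the first step 1363 genes were higher and 1146 lower (20.5% and 17.2% of 6664 tested). Higher genes made up 54.3% of these calls, and 72.3% with plain library totals.

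The difference between steps itself passed the test for 1708 of 6528 genes (26.2%), for 969 without replicate 2 (14.8%) and for 884 in both fits (13.7%). It passed for 2951 genes without replicate 1 of the second depletion, for 1137 without replicate 1 of the recovery and for 1073 with plain library totals. Second-step changes above the first-step ones made up 56.1% of the calls, and 32.6% with plain library totals, which move the median difference of all genes, so no preferred direction is read from this count. Most of the differences named by their fitted size were at chromosome ends, and several rest on groups with few counts in the first step, for which counts are given. SPAC212.08c, annotated as a GPI-anchored protein (I:11784-12994), changed by -2.51 in the second step. In the first step it had 0 counts at 24 h and was at least 137-fold lower than at 0 h, and the difference between steps passed (adjusted p = 8.86e-05). It started lower in the second step, at 1.39 to 2.30 CPM in the 24 h recovery, against a mean of 16.8 CPM in the 0 h libraries. The RecQ helicase gene tlh1 at the very end of chromosome I had 0.668, 3.33 and 0.997 CPM in the second depletion, against 2.25, 3.02 and 2.00 CPM in the recovery, groups that overlapped through replicate 2. It changed by -0.67 (adjusted p = 0.229) with all libraries and by -1.53 (adjusted p = 0.00232) without replicate 2. In the first step it had 3 counts at 24 h and 832 at 0 h (adjusted p of the difference 1.63e-05). SPBCPT2R1.07c, near the right end of chromosome II, had 31.9, 26.0 and 33.4 CPM in the second depletion, against 22.3, 26.7 and 27.6 CPM in the recovery. In the first step it had 9 counts at 24 h and 962 at 0 h, 115-fold higher at 0 h (interval 60.1 to 251; adjusted p of the difference 6.11e-09). SPAC212.10 had 2 counts at 24 h and 816 at 0 h (adjusted p of the difference 0.00455). tlh1 and the genes beside it have near-identical copies at other chromosome ends, so their counts are uncertain.

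In the other direction, shu1 rose in both steps, and the difference between them passed (adjusted p = 0.0135). It had 902, 76.0 and 626 CPM in the 3 libraries at 24 h of the first depletion, which are far from equal, against 1 count in the 3 libraries at 0 h together, so the size of its first rise is not given. SPAPJ695.02 differed by -9.87 (log2, second minus first), a value in which 1 library counts heavily, since replicates 1 and 3 of the 24 h recovery held 0.614 and 0.205 CPM and replicate 2 was far above both. Its second-step estimate alone did not pass (adjusted p = 0.0782). The catechol O-methyltransferase gene SPBPB21E7.04c (II:64487-65620) was at 0.31 in the second step (adjusted p = 0.312), with 5.19, 3.87 and 6.31 CPM in the second depletion, against 4.25, 3.44 and 4.81 CPM in the recovery. In the first step it had changed by 7.67, and the difference was -7.33. The overlapping SPNCRNA.1304 differed by -7.22.

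**Figure D5:**
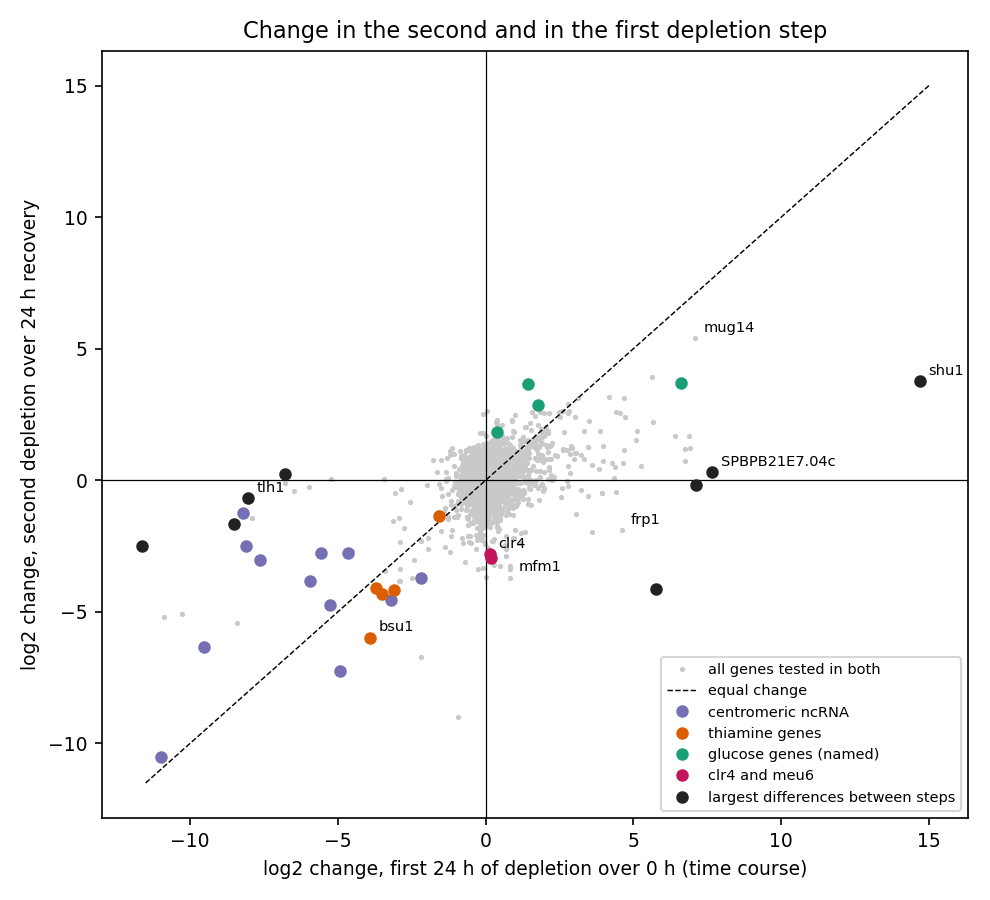
Log2 change of each gene in the second depletion over the 24 h recovery (vertical) against its change in 24 h over 0 h of the first depletion (horizontal); grey points are genes tested in both, coloured points the named groups, and the dashed line equal change. Thiamine genes lie within 2.07 of the line, clr4 and meu6 lie at 0.16 and 0.19 on the horizontal axis and at -2.80 and -2.96 on the vertical one, and several genes at chromosome ends lie far from the line along the horizontal axis. The place of genes with few or no counts in a group depends on the prior count of the fit.

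Several genes named above moved in opposite directions in the steps. mfm1 changed by -3.70 in the second step and by 0.83 in the first (difference -4.52), and frp1 by -1.88 and 4.63 (difference -6.51). The first-step rise of frp1 rests on 2 of the 3 libraries at 24 h, which held 799, 54.8 and 1075 CPM, against 7.62, 53.0 and 16.9 CPM at 0 h. pho1 changed by -0.88 and 0.82, and pyp2 by 1.22 and -0.58. The meiotic transcription factor gene mei4 changed by -0.47 and by -3.07, lower in both (difference 2.62). Among thiamine genes the difference passed the test for bsu1 (-2.07), SPBC530.07c (-1.05) and pho4 (-0.81), and the estimates for thi9 and thi4 were -0.39 (adjusted p = 0.104) and 0.24 (adjusted p = 0.152). gld1 and scr1 rose more in the second step (differences of 2.27 and 1.47), and ght3 less (-2.88). ght5 rose in the second step and stood at 0.08 in the first (adjusted p = 0.610; difference 1.34). For ctt1 the difference of 1.70 did not pass (adjusted p = 0.0861).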

How the data were processed

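PolyA RNA libraries were trimmed with Trimmomatic and aligned with STAR to ASM294v2, per the submitters' processing notes; versions and the counting tool are not given in the sources used here. The deposited tables hold raw counts per gene for 6745 genes, not normalized by the authors, and 6 sample columns that match no library here were not used. Coordinates are those of the deposited tables (ASM294v2), given 1-based. Of the gene identifiers, 6626 matched the RefSeq annotation, which gave product names; its build is ASM294v3, and none of its coordinates are printed.

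Counts were tested with edgeR 4.0.16 (R 4.3.3, limma 3.58.1): filterByExpr, TMM scaling, robust quasi-likelihood fit, Benjamini-Hochberg adjustment over all tested genes, threshold 0.05. The second depletion against the 24 h recovery was fitted on all 15 memory libraries, the first step on 18 time-course libraries, and the difference of the steps on 33 libraries together. CPM use TMM-adjusted totals, calculated within each experiment. Counts of overlapped genes were separated by subtraction. DESeq2 1.42.0, other scalings, a GC offset, a replicate block and leaving out single libraries were alternatives. Intervals and limits on counts of 0 (3 counts) cover counting error only. In data simulated for the second step, 85 of 100 genes altered 2-fold and 92 of 100 altered 4-fold were recovered. Of 6285 unaltered genes, 7 were called. The simulated counts varied independently from gene to gene, with no GC trend and no deviating library, so these rates may not hold for the real libraries.

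Named genes are up to 12 rises and 12 falls that pass with and without second depletion replicate 2, with groups that do not overlap and at least 5 CPM in either group; up to 4 differences between steps each way, where the groups of either step do not overlap; all thiamine genes; and up to 4 called members of each other list. Others were named after their values were seen. The comparison, the genes and the lists were chosen with earlier results of these data known. No sequence is printed.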

Additional observations from a re-analysis of the deposited data

Results flagged for a closer look

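The difference between the steps, second minus first on the log2 scale, passed the joint test with and without second depletion replicate 2 for the genes below. Experiment and step cannot be told apart in these values.

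Below 0, so that the change in the second step lay below that in the first, were the differences of SPAPJ695.02 (-9.87), SPBPB21E7.04c (-7.33), SPNCRNA.1304 (-7.22), frp1 (-6.51), mfm1 (-4.52), meu6 (-3.13), clr4 (-2.94), ght3 (-2.88), pfl7 (-2.30), eno102 (-2.17), bsu1 (-2.07), mfm2 (-1.98), zym1 (-1.97), hsp16 (-1.83), ste6 (-1.81), pho1 (-1.68), fbp1 (-1.47), mug111 (-1.20), mam4 (-1.18), pho84 (-1.08), SPBC530.07c (-1.05), SPBP8B7.18c and the antisense gene over it (-0.89 each), pho4 (-0.81), epe1 (-0.76) and SPCC162.02c (-0.61). Of these, ght3, pfl7, eno102, zym1, hsp16 and fbp1 rose in both steps and rose less in the second, while bsu1, mug111, SPBC530.07c, SPBP8B7.18c, its antisense gene, pho4 and SPCC162.02c fell in both and fell further in the second.

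Above 0, so that the change in the second step lay above that in the first, were the differences of ght5 (1.34), scr1 (1.47), pyp2 (1.82), gld1 (2.27), sdh1 (2.29) and mei4 (2.62). Of these, scr1 and gld1 rose in both steps and mei4 fell in both.

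For genes with at most 9 counts over the 3 libraries of a group, the size of the difference depends on the prior count of the fit, and its adjusted p is given instead. These were shu1 (0.0135), with the smaller rise in the second step, and, with the smaller or no fall in the second step, SPNCRNA.373 (0.0116), SPNCRNA.234 (0.00192), SPNCRNA.231 (0.00145), SPNCRNA.359 (0.00137), SPNCRNA.230 (2.33e-05), SPAC212.10 (0.00455), SPBCPT2R1.07c (6.11e-09), tlh1 (1.63e-05) and SPAC212.08c (8.86e-05). In the second step itself tlh1 did not pass with all libraries and was lower without replicate 2 of the second depletion (-1.53, adjusted p = 0.00232). SPBCPT2R1.07c passed in neither fit, and SPNCRNA.230 and SPAC212.10 passed only with that library.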

How the results depend on the processing

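The number of genes called moved with single libraries of either group, with the scaling and with the libraries that share the spread estimate. Against 1802 genes in the second step, plain library totals gave 652 (and moved the median of all genes to -0.22), the compared groups alone 336, and those groups without second depletion replicate 2 954. Leaving out 1 library at a time gave 801 to 3409, namely 3409, 1193 and 1364 without second depletion replicates 1, 2 and 3, and 873, 1385 and 801 without 24 h recovery replicates 1, 2 and 3. RLE size factors gave 1816, no filter 1796, a GC offset 1973, the non-robust fit 1821 and DESeq2 2363. Against 1708 genes for the difference between steps, plain totals gave 1073 and leaving out 1 library 969 to 2951, with 2951 and 969 without second depletion replicates 1 and 2 and 1137 without 24 h recovery replicate 1. The first step stayed at 1804 to 2362 with single libraries left out, against 2509. The replicate block gave 1404 genes in the second step, 1801 with the GC offset, and 1784 for the difference. Correlations of deviations between libraries of the same number were 0.43, 0.45 and 0.07, against -0.54 to 0.34 between different numbers. Each second depletion library correlated best with the recovery library of its own number, while recovery replicate 3 correlated best with second depletion replicate 1. The labels do not say that the numbers pair libraries, so they were not taken to do so in the main fit. The 619 values of the largest rises, falls and step differences, the thiamine genes, epe1, clr4 and meu6 under these alternatives kept their direction and their side of the threshold. Of the 1434 values of other named genes 287 dropped below the threshold with their direction kept, and 13 turned direction, in genes not called: SPBCPT2R1.07c to -0.13 (GC offset) and -0.15 (with the block), SPNCRNA.1304 to 0.14 and 0.16 in the same fits, to 0.12 in the compared groups without second depletion replicate 2 and to between -0.68 and 0.12 with single libraries left out, ght2 to -0.10 (plain totals), and ght8 to -0.12 (plain totals), -0.13 (both GC fits) and -0.09 (compared groups without replicate 2), with -0.09 to 0.29 for single libraries left out. Of 88 list medians 15 moved by more than the spread between libraries. Under plain totals that of iron uptake was -0.15 and under the GC offset -0.19, against 0.15. With the GC offset the median was 0.25 for glycolysis genes, against 1.09, and 0.04 for ribosomal protein genes, against 0.61. For the thiamine genes it was -4.25, against -4.16, and for the glucose list 1.26, against 1.41. Depth limits the RNAs with under 10 counts per library in the second depletion.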

Other observations

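The untreated and 48 h recovery libraries of the memory experiment give levels outside the comparison. SPAC212.08c averaged 19.1 CPM in untreated cells, 0.204 CPM after 120 h of depletion, 1.81 CPM after 24 h of recovery, 0.377 CPM after the second depletion and 3.15 CPM after 48 h of recovery, and SPAC212.10 averaged 8.71, 0.354, 0.762, 0.229 and 1.42 CPM over the same stages. Neither gene had therefore returned to the untreated level in either recovery group. SPAC212.12, at the same left end of chromosome I, came closer to it, with 16.9, 0.545, 13.6, 0.375 and 8.63 CPM over these stages. The centromeric SPNCRNA.373 averaged 13.9, 1.36, 14.1, 0.980 and 20.9 CPM.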
